A study of Cyprinodon variegatus with 4 samples.

Results

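The comparison set both libraries of sheepshead minnow larvae exposed to polyester microfibres against both libraries of larvae kept without fibres. Sheepshead minnow (Cyprinodon variegatus) lives in estuaries and serves as a test species in toxicology, and the fibres were of polyethylene terephthalate (PET), from which polyester clothing is spun. Whole bodies were taken, and each treatment was sequenced as 1 library: PET at 10 mg/L, PET at 100 mg/L, an untreated control, and a surfactant control given Tween 80 at 0.001%. The labels give an exposure of 10 days for all of them and a stage of 72 h after fertilization, and they do not say for each library whether the fibre suspensions held Tween 80 too. The series title names Merkel cells (skin cells that sense touch) and the corpuscles of Stannius (glands that make the calcium-lowering hormone stanniocalcin) as possible targets of the fibres.

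Expression was deposited as FPKM, the fragments mapped to an assembled contig, scaled for its length and the library's mapped fragments. FPKM was summed over all contigs that carried the same protein description, and only sums whose 4-library mean reached 10 FPKM were used. Of 24404 annotated contigs this made 9609 sums, and 2686 of them passed this filter (kept sums), 848 made of 1 contig and 1838 of several. A description is the name of the best-matching protein, often of another species, and contigs of several genes can share it. The members of the PET pair differ in dose and those of the other pair in surfactant, so neither pair is a set of replicates, and neither p-values nor standard errors are given. A sum is called higher or lower here if the ranges of the pairs do not overlap and the ratio of the pair means, with 0.5 FPKM added to each, is at least 1.5-fold. The other ways of pairing the same 4 libraries gave the background.

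Fibres that larvae swallow or that touch the skin and gills meet epithelia that defend, digest and regulate ions. The liver of a fish larva secretes most plasma proteins, among them the complement proteins that tag microbes for destruction and the factors that rise in the acute phase of inflammation. It also breaks down amino acids, makes lipoproteins and holds the enzymes that oxidise and conjugate foreign compounds.

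Total FPKM ran between 1039707 and 1080208 per library, and the median kept sum was 23.37 FPKM at 10 mg/L and 24.14 FPKM at 100 mg/L, against 22.96 FPKM in the control and 22.95 FPKM in the surfactant control. Depth relative to the control was estimated from the most frequent ratio of library to control among contigs averaging under 3 FPKM. This rough figure was 84.7% at 10 mg/L, 80.0% at 100 mg/L and 78.05% in the surfactant control, and read counts were not used here. Transcripts of lens, muscle, skin, pancreas, liver, retina and neurons were found in each library, as the label of whole body has it.

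More sums were separated by the pairing of PET libraries against libraries without fibres than by either other pairing, and most of the separations were small. The range of the PET pair lay above that of the pair without fibres in 721 sums (26.8%) and below it in 320 (11.9%), together 1041 of 2686 (38.8%). Without ties, each sum is separated in exactly 1 of the 3 pairings, so the counts of the pairings depend on each other. A list with many members separated under 1 pairing has few left for the others. The surfactant control with PET 100 mg/L stood apart from the control with PET 10 mg/L in 843 sums (31.4%), 532 higher (19.8%) and 311 lower (11.6%). The surfactant control with PET 10 mg/L stood apart from the control with PET 100 mg/L in 788 (29.3%), 315 higher (11.7%) and 473 lower (17.6%). The median log2 ratio of PET over no fibres was 0.04. After median-of-ratios scaling it was 0.00 and the separated sums were 501 higher and 525 lower, so the share of higher ones was 48.8% with scaling and 69.3% as deposited. Direction counts of lists are therefore given below with both. As deposited they are to be read beside the 26.8% higher and 11.9% lower of all kept sums.

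At 1.5-fold or more, 18 sums were higher in the PET pair (0.67%) and 11 lower (0.41%), 29 in all (1.08%). The surfactant control with PET 100 mg/L was higher in 7 (0.261%) and lower in 5 (0.186%) by the same rule, 0.447% together, and the surfactant control with PET 10 mg/L in 7 (0.261%) and 4 (0.149%), 0.41% together. With scaling the PET pair had 15 higher and 12 lower. With a fold threshold only 25% above equality, the PET pair had 116 calls (4.32%), 87 of them higher, beside 68 (2.53%) and 53 (1.97%) in the other pairings. At 2-fold it had 3 higher and 2 lower. With the sums kept by the 4-library filter, 8 of the 29 calls held whichever library was left out, with Lect2, PCYOX1, ucp2, NDP kinase A1 and XlCGF48.2 among the higher, and ladderlectin and Ptgr1 among the lower. Leaving out a library cannot make separated ranges overlap, so only the 1.5-fold part of the rule could fail here. The number of the 29 that held was 26 without PET 10 mg/L, 21 without PET 100 mg/L, 20 without the control and 22 without the surfactant control. With the filter applied to the 3 libraries left, an alternative chosen after seeing the data, 6 of the 29 held in every case. PCYOX1 then dropped out without PET 10 mg/L, where the other libraries averaged 5.003 FPKM, and ladderlectin without the surfactant control, where they averaged 9.18 FPKM.

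**Figure D1:**
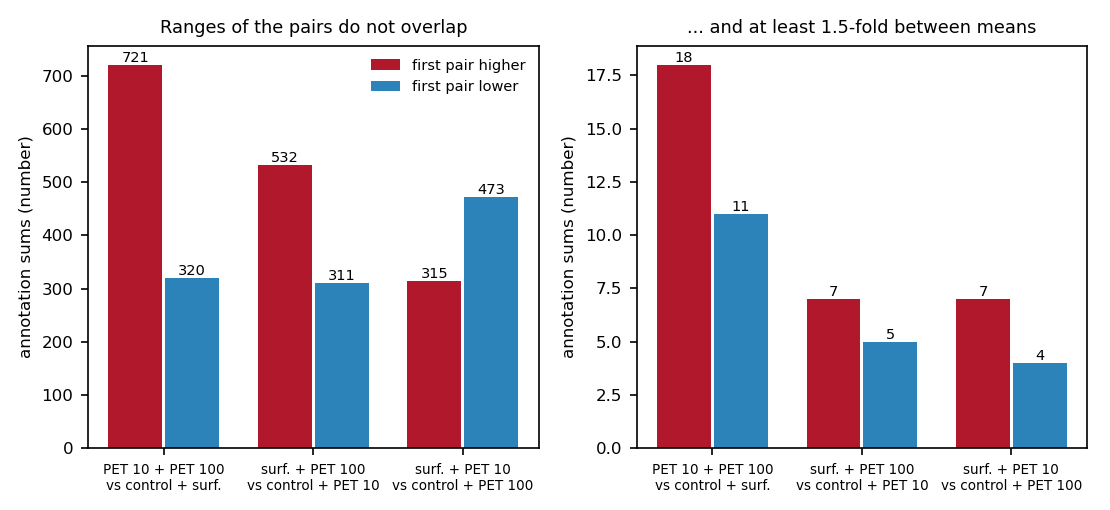
Number of annotation sums (y axis) whose ranges do not overlap between the pairs (left) and that are also at least 1.5-fold apart between pair means (right), for the 3 ways of pairing the 4 libraries (x axis; red, the pair named first is higher; blue, it is lower). The PET pair has 721 higher and 320 lower on the left, and 18 and 11 on the right, against 7 and 5, and 7 and 4, in the other pairings.

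**Figure D2:**
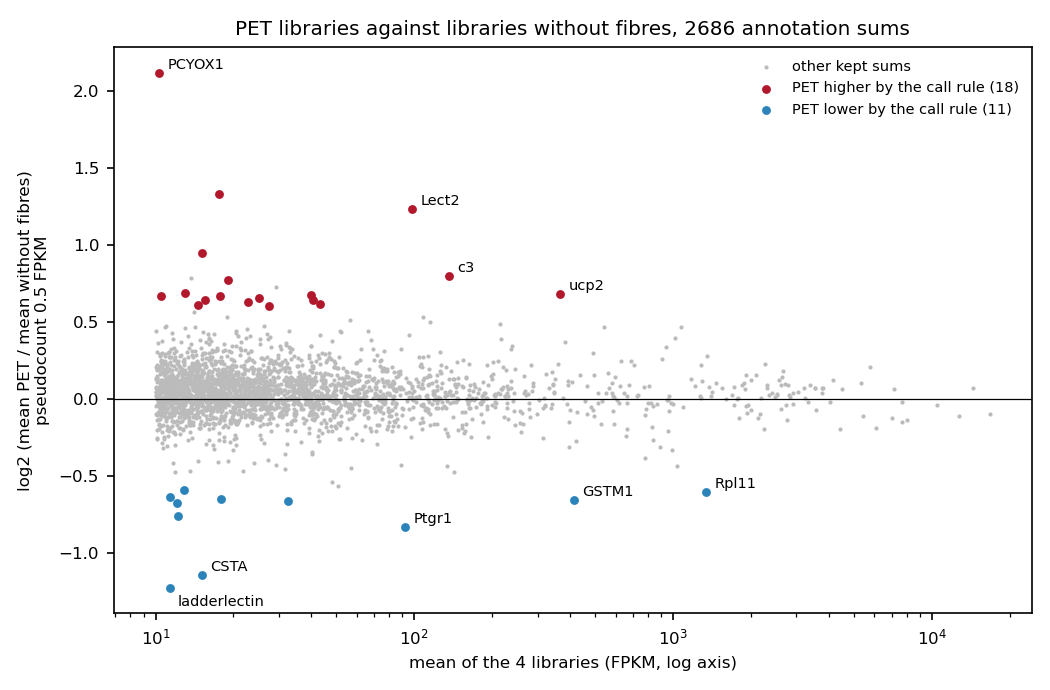
Log2 ratio of the PET mean over the mean without fibres (y axis) against the mean of the 4 libraries in FPKM (x axis, log scale) for 2686 annotation sums. Red and blue points pass the call rule with PET higher (18) and lower (11); Lect2, c3, ucp2, GSTM1 and Rpl11 are the labelled calls at high levels, and most other calls lie under 50 FPKM.

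Secreted proteins of innate immunity were among the higher calls. Leukocyte cell-derived chemotaxin-2 (Lect2), a protein that the liver secretes and that attracts neutrophils, was at 143 FPKM at 10 mg/L and 133 FPKM at 100 mg/L, against 65.4 FPKM in the control and 51.6 FPKM in the surfactant control. The lower PET library was 2.02 times the higher library without fibres, the widest gap of the 29 calls, and the log2 ratio of means was 1.23. Complement C3 (c3), the protein on which all complement pathways meet, was at 148 FPKM at 10 mg/L and 198 FPKM at 100 mg/L, against 87.1 FPKM in the control and 111 FPKM in the surfactant control. Its log2 ratio was 0.80, and without the PET 100 mg/L library its ratio of means was 1.49, just under the threshold.

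The complement and acute phase list had 8 kept members of 19 annotations, with a median log2 ratio of 0.46 beside 0.04 for all kept sums. In 7 of the 8 (87.5%) the PET range was above the other and in 0 below, with and without scaling, and 3 passed the call rule. Of all kept sums as deposited, 26.8% were separated higher, 11.9% lower, and 0.67% were called higher. Paired otherwise, the list had medians of 0.17 and -0.04. With 7 of the 8 separated under the PET pairing, at most 1 could be separated elsewhere, and 1 member and 0 members were. The alpha chain of C8 (C8A), part of the membrane pore that complement builds, was at 14.3 FPKM at 10 mg/L and 15.9 FPKM at 100 mg/L, against 10.4 FPKM in the control and 11.3 FPKM in the surfactant control. Mannose-binding protein C (MBL2), a lectin that starts complement on sugars of microbes, was at 60.1 FPKM at 10 mg/L and 59.4 FPKM at 100 mg/L, against 40.3 FPKM in the control and 47.7 FPKM in the surfactant control. Complement factor I (Cfi), which cuts C3b, was separated in the same direction, with a log2 ratio of 0.45. The exception was complement factor B (Cfb), the protease of the alternative pathway, at 21.7 FPKM at 10 mg/L and 28.8 FPKM at 100 mg/L, against 17.4 FPKM in the control and 23.3 FPKM in the surfactant control, where the ranges overlap. C1q-like protein 2 (C1QL2), counted among the 7, is not a complement component but belongs to a family of synaptic proteins. The acute phase C-reactive protein (crp) was under the filter, at 4.48 FPKM at 10 mg/L and 9.59 FPKM at 100 mg/L, against 7.53 FPKM in the control and 7.94 FPKM in the surfactant control, and its ranges overlap.

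Other proteins of plasma were higher too, and like the complement list they also differed between the libraries without fibres. The median log2 ratio of the surfactant control over the control was 0.24 in the complement list and 0.27 in the plasma list. In the complement list the surfactant control was above the control in 6 of 8 members. The list of clotting factors and other plasma proteins kept 12 of 24 annotations, with a median of 0.26. Of these, 7 (58.3%) were separated higher and 0 lower, with and without scaling, beside 26.8% and 11.9% of all kept sums as deposited. None of the 12 passed 1.5-fold. Vitronectin (VTN), which binds cells and the complement pore, was at 43.4 FPKM at 10 mg/L and 46.3 FPKM at 100 mg/L, against 33.0 FPKM in the control and 37.5 FPKM in the surfactant control. Fetuin-B (Fetub, a liver protease inhibitor) had a log2 ratio of 0.31, retinol-binding protein 4-A (rbp4a, which carries vitamin A) of 0.30 and serotransferrin-1 (tf1, the iron carrier) of 0.26. The surfactant control was above the control in 12 of the 12, and the pairing of the surfactant control with PET 100 mg/L separated 5 of them with a median of 0.22. Summed over the list, plasma proteins were at 3683 FPKM at 10 mg/L and 4404 FPKM at 100 mg/L, against 3061 FPKM in the control and 3691 FPKM in the surfactant control, so these sums overlap. In RNA of whole larvae, more liver cells and more of such RNA per liver cell cannot be told apart. The part that the amount of liver RNA has in the complement result was not tested.

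**Figure D3:**
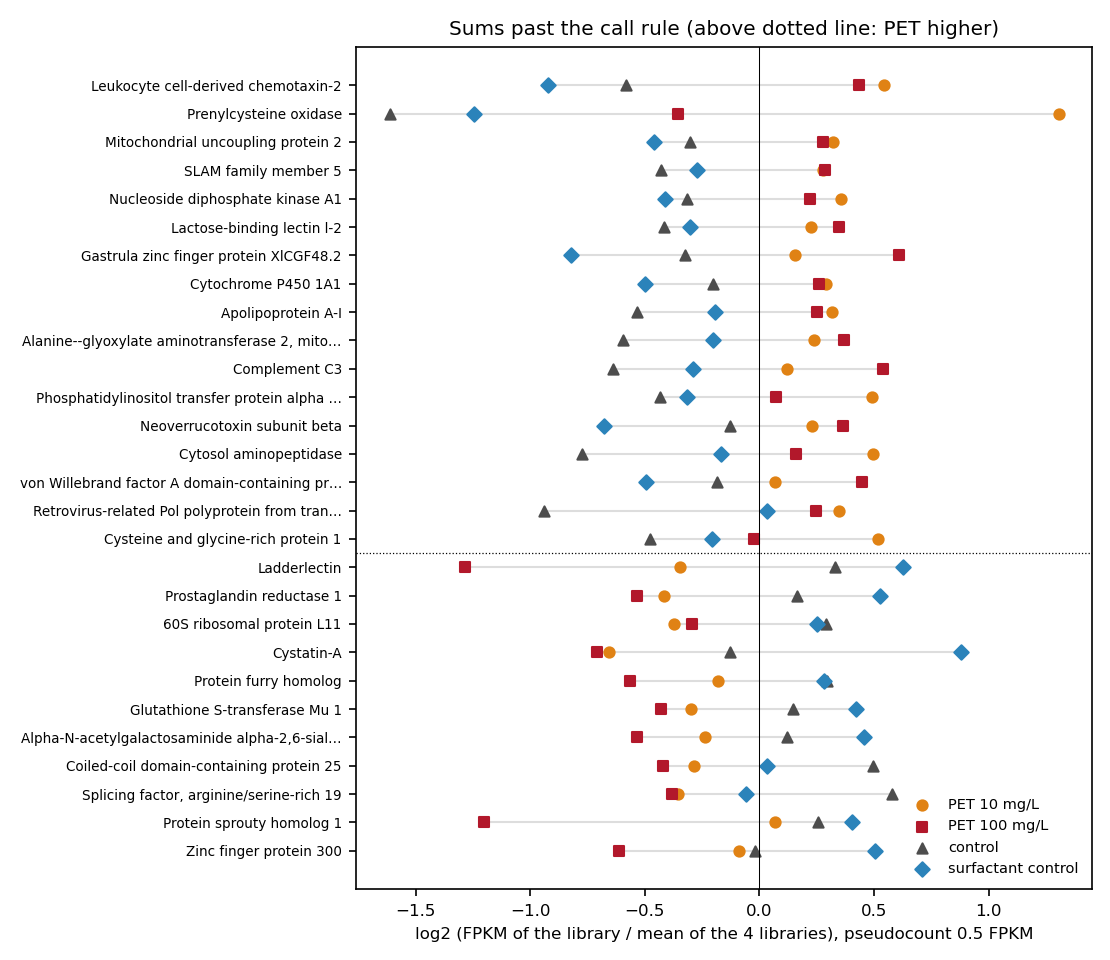
Level of 28 of the called sums in each library, as the log2 of its FPKM over the mean of the 4 libraries (x axis, 0.5 FPKM added), with higher calls above the dotted line and lower calls under it, each ordered by the gap between the nearest libraries of the pairs. Leukocyte cell-derived chemotaxin-2 has the widest gap, and prenylcysteine oxidase is far higher at 10 mg/L than at 100 mg/L.

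Lectins, proteins that bind sugars, went both ways. Lactose-binding lectin l-2, a defence lectin of fish skin mucus, was at 47.3 FPKM at 10 mg/L and 51.6 FPKM at 100 mg/L, against 30.2 FPKM in the control and 32.7 FPKM in the surfactant control. Its ratio of means was 1.56, and 1.496 without the PET 100 mg/L library. Ladderlectin, a lectin described in trout plasma that binds bacterial surfaces, was the lowest call: 8.82 FPKM at 10 mg/L and 4.36 FPKM at 100 mg/L, against 14.4 FPKM in the control and 17.8 FPKM in the surfactant control, a log2 ratio of -1.23. Ladderlectin passed the filter of 10 FPKM through the pair without fibres, with a PET mean of 6.59 FPKM. Its place among the calls is thus not independent of its direction. Both lectins separate the pairs without overlap, in opposite directions. The list of innate and adaptive immunity, which holds neither of these lectins, kept 43 of 179 annotations, with a median of 0.09 and 0 called. Of the 43, 12 were separated higher (27.9%) and 2 lower (4.65%), or 10 and 5 with scaling. The share higher was close to the 26.8% of all kept sums as deposited, of which 11.9% were lower. Interferon regulatory factor 1 (IRF1), a transcription factor of the interferon response, was at 25.2 FPKM at 10 mg/L and 22.0 FPKM at 100 mg/L, against 17.98 FPKM in the control and 16.9 FPKM in the surfactant control. The antibody receptor and ubiquitin ligase TRIM21 was at 9.02 FPKM at 10 mg/L and 10.7 FPKM at 100 mg/L, against 13.4 FPKM in the control and 14.4 FPKM in the surfactant control, a log2 ratio of -0.48. It passed the filter of 10 FPKM through the pair without fibres, with a PET mean of 9.865 FPKM. SLAM family member 5 (Cd84), a receptor of leukocytes that is not in the list either, passed the call rule. Cd84 was at 27.8 FPKM at 10 mg/L and 28.0 FPKM at 100 mg/L, against 16.8 FPKM in the control and 18.8 FPKM in the surfactant control. Its ratio was 1.47 when the control is left out.

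Enzymes that handle foreign compounds and oxidants were split between the directions. Cytochrome P450 1A1 (cyp1a1), an oxidase that the aryl hydrocarbon receptor induces, was at 53.2 FPKM at 10 mg/L and 52.1 FPKM at 100 mg/L, against 37.6 FPKM in the control and 30.5 FPKM in the surfactant control. The PET libraries were nearly alike, and the log2 ratio of means was 0.62; without the surfactant control the ratio was 1.39. Cytochrome P450 1B1 (CYP1B1), of the same family, was at 32.1 FPKM at 10 mg/L and 35.9 FPKM at 100 mg/L, against 26.9 FPKM in the control and 27.1 FPKM in the surfactant control. Of the P450 and conjugation list 18 of 68 annotations were kept, with a median of 0.14. Of these, 8 (44.4%) were separated higher and 1 (5.56%) lower, as deposited and with scaling. All kept sums had 26.8% higher and 11.9% lower as deposited. The median of the list was 0.15 in the pairing of the surfactant control with PET 100 mg/L, with 6 higher and 1 lower.

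Glutathione S-transferase Mu 1 (GSTM1), which joins glutathione to electrophiles, was lower, at 337 FPKM at 10 mg/L and 308 FPKM at 100 mg/L, against 459 FPKM in the control and 556 FPKM in the surfactant control, a log2 ratio of -0.65. Without the surfactant control its ratio was 0.70, short of the threshold. Glutathione S-transferase omega-1 (GSTO1) was at 39.5 FPKM at 10 mg/L and 42.2 FPKM at 100 mg/L, against 54.8 FPKM in the control and 66.4 FPKM in the surfactant control, and its ratio of 0.68 left it just outside the call rule. Prostaglandin reductase 1 (Ptgr1), which reduces reactive aldehydes and inactivates leukotriene B4, was at 69.2 FPKM at 10 mg/L and 63.7 FPKM at 100 mg/L, against 104 FPKM in the control and 133 FPKM in the surfactant control, a log2 ratio of -0.83. All 3 were lowest in the PET pair and highest in the surfactant control. Other antioxidant enzymes lay the other way: glutathione S-transferase A4 (GSTA4) had a log2 ratio of 0.22 and GPX4, the peroxidase of membrane lipids, of 0.25. The antioxidant list kept 25 of 52 annotations with a median of 0.02, 6 separated higher and 5 lower as deposited, but 4 and 7 with scaling.

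Enzymes of amino acid breakdown were higher in most kept members. The list kept 12 of 36 annotations, with a median of 0.24, and 9 (75.0%) were separated higher and 0 lower, with and without scaling. All kept sums had 26.8% higher and 11.9% lower as deposited. Paired otherwise, the medians of the list were 0.07 and -0.06. Enzymes of the chain that degrades tyrosine were among the 9. Tyrosine aminotransferase (Tat), which opens the chain, was at 131 FPKM at 10 mg/L and 126 FPKM at 100 mg/L, against 94.2 FPKM in the control and 82.9 FPKM in the surfactant control, and its log2 ratio of 0.53 was 0.32 at its main contig alone. The next enzyme, 4-hydroxyphenylpyruvate dioxygenase (hpd), was at 131 FPKM at 10 mg/L and 140 FPKM at 100 mg/L, against 94.3 FPKM in the control and 96.8 FPKM in the surfactant control. The ranges of both enzymes do not overlap between the pairs, while the last enzymes of the chain (Hgd and FAH) were under the filter, with no library above 2.24 FPKM.

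Alanine--glyoxylate aminotransferase 2 (AGXT2), a mitochondrial enzyme of glyoxylate and methylarginine breakdown, was called, at 15.4 FPKM at 10 mg/L and 16.9 FPKM at 100 mg/L, against 8.42 FPKM in the control and 11.2 FPKM in the surfactant control. Its ratio without the control was 1.42, and it passed the filter of 10 FPKM through the PET pair, with a mean of 9.80 FPKM without fibres. Of the enzymes that pass the sulphur of methionine to cysteine, cystathionine gamma-lyase (Cth) had a log2 ratio of 0.31 and cystathionine beta-synthase (CBS) of 0.27. The alanine and cytosolic aspartate aminotransferases (gpt2, gpt2l and GOT1) had overlapping ranges.

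**Figure D4:**
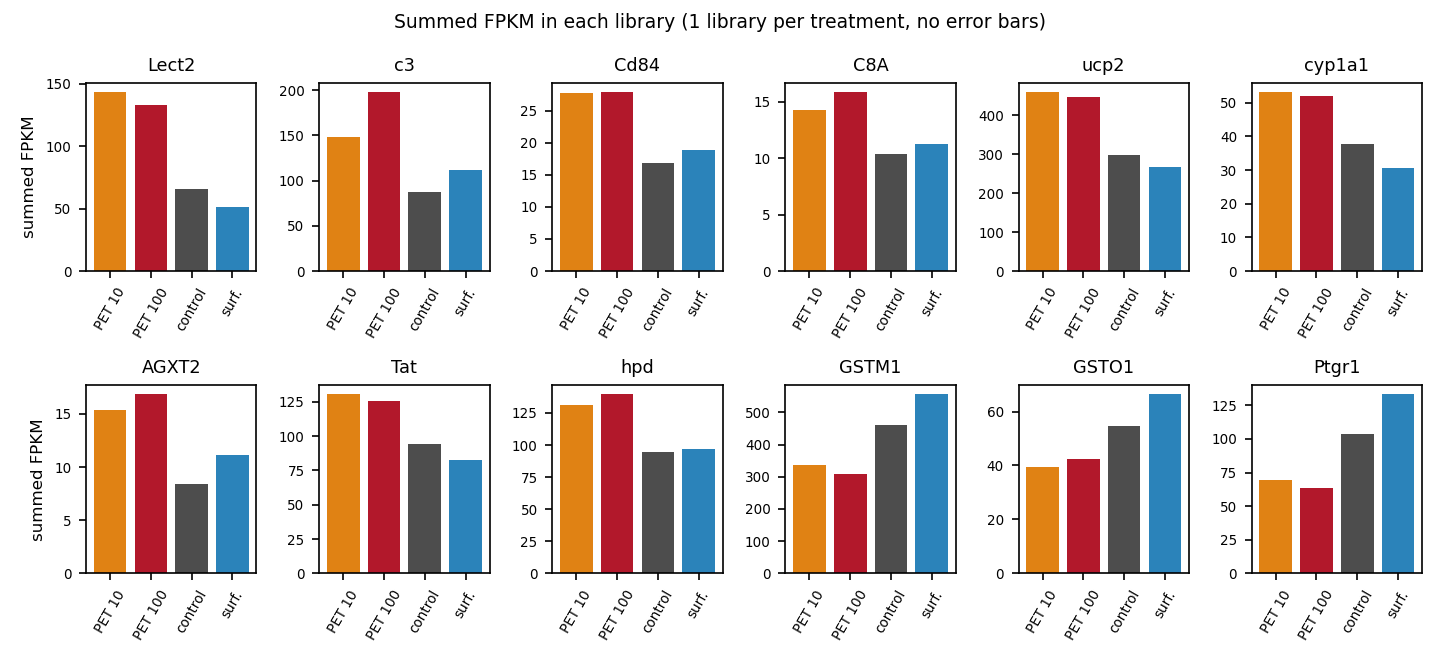
Summed FPKM (y axis, from 0) of 12 genes in the 4 libraries, 1 bar per library, with no error because each treatment has 1 library. For Lect2, c3, Cd84, C8A, ucp2, cyp1a1, AGXT2, Tat and hpd both PET bars stand above the bars without fibres, and for GSTM1, GSTO1 and Ptgr1 both stand under them.

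Among genes of lipid metabolism and mitochondria, ucp2 and apoa1 were called higher. Mitochondrial uncoupling protein 2 (ucp2), a carrier of the inner mitochondrial membrane, had the highest level of the higher calls, at 460 FPKM at 10 mg/L and 445 FPKM at 100 mg/L, against 297 FPKM in the control and 267 FPKM in the surfactant control. Its log2 ratio was 0.68, and its main contig, 78.5% of the sum, was separated the same way. Apolipoprotein A-I (apoa1), the main protein of high-density lipoprotein, was at 19.4 FPKM at 10 mg/L and 18.6 FPKM at 100 mg/L, against 10.5 FPKM in the control and 13.5 FPKM in the surfactant control. Its ratio without the control was 1.39, and its main contig alone, at 9.75 FPKM at 10 mg/L and 8.53 FPKM at 100 mg/L, against 6.30 FPKM in the control and 10.4 FPKM in the surfactant control, overlaps. The list of apolipoproteins and lipid carriers kept 11 of 17 annotations with a median of 0.08, 5 separated higher (45.5%) and 0 lower, or 3 and 1 with scaling. All kept sums had 26.8% higher and 11.9% lower as deposited.

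All 4 kept members of the cholesterol synthesis list, a word-pattern list of 11 annotations, were separated higher as deposited, and 3 with scaling, with a median of 0.23 beside 0.07 and 0.11 in the other pairings. Of all kept sums 26.8% were separated higher as deposited. Diphosphomevalonate decarboxylase (mvd) was at 15.6 FPKM at 10 mg/L and 15.4 FPKM at 100 mg/L, against 10.7 FPKM in the control and 13.3 FPKM in the surfactant control. Squalene synthase (FDFT1), which commits the pathway to sterols, was at 79.9 FPKM at 10 mg/L and 72.0 FPKM at 100 mg/L, against 61.7 FPKM in the control and 65.6 FPKM in the surfactant control.

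Glycolysis and muscle had more members separated lower than higher. All kept sums had 26.8% higher and 11.9% lower as deposited. The list of glycolysis and creatine kinases kept 16 of 29 annotations, with a median of -0.02, 3 separated higher (18.75%) and 8 lower (50%), or 1 and 8 with scaling. Its log2 ratios were above 0 in 8 members and below 0 in 8. The muscle form of phosphofructokinase (PFKM), which controls the rate of glycolysis, was at 79.1 FPKM at 10 mg/L and 76.2 FPKM at 100 mg/L, against 89.2 FPKM in the control and 86.1 FPKM in the surfactant control. The mitochondrial creatine kinase CKMT1 was separated higher, with a log2 ratio of 0.21. Sarcomere and other skeletal muscle proteins kept 39 of 55 annotations, with a median of -0.05. Of these, 1 was separated higher (2.56%) and 12 lower (30.8%), or 1 and 13 with scaling, and 0 were called. In the other pairings the muscle list had 5 higher and 5 lower, and 12 higher and 4 lower.

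Titin (Ttn), the spring of the sarcomere, was at 122 FPKM at 10 mg/L and 117 FPKM at 100 mg/L, against 148 FPKM in the control and 184 FPKM in the surfactant control, a log2 ratio of -0.47. Alpha-actinin-3 (ACTN3), which anchors actin in fast fibres, was at 369 FPKM at 10 mg/L and 339 FPKM at 100 mg/L, against 469 FPKM in the control and 409 FPKM in the surfactant control. Calsequestrin-1 (Casq1, the calcium store of fast muscle) had a log2 ratio of -0.24. The 1 member separated higher was cardiac troponin T (TNNT2), a thin filament protein of heart, at 78.3 FPKM at 10 mg/L and 76.0 FPKM at 100 mg/L, against 59.0 FPKM in the control and 59.1 FPKM in the surfactant control. Summed over the list, muscle proteins were at 70259 FPKM at 10 mg/L and 68531 FPKM at 100 mg/L, against 77407 FPKM in the control and 72836 FPKM in the surfactant control, so the PET libraries were the lowest, by a log2 ratio of -0.11.

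Regulators that respond quickly to stress and to glucocorticoids also had more members separated lower than higher. Of 45 annotations 19 were kept, with a median of -0.07, 1 separated higher (5.26%) and 8 lower (42.1%), or 1 and 9 with scaling. In the other pairings this list had 2 and 1, and 0 and 7. All kept sums had 26.8% higher and 11.9% lower as deposited under the PET pairing. GADD45B, induced by stress and DNA damage, was at 48.8 FPKM at 10 mg/L and 47.4 FPKM at 100 mg/L, against 65.3 FPKM in the control and 66.1 FPKM in the surfactant control. Krueppel-like factor 2 (Klf2), a flow-induced factor of vessels, was at 78.1 FPKM at 10 mg/L and 73.0 FPKM at 100 mg/L, against 104 FPKM in the control and 99.5 FPKM in the surfactant control. Klf6 had a log2 ratio of -0.36 and the glucocorticoid-induced FKBP5 of -0.21, while egr1 overlapped. Over the list 7 log2 ratios were above 0 and 12 below. They ran between -0.45 and 0.69, and the member at 0.69 had overlapping ranges. The list of heat shock and unfolded protein response kept 29 of 66 annotations, with a median of -0.07. In it, 2 were separated higher (6.9%) and 8 lower (27.6%), or 1 and 11 with scaling. Its largest difference was in HSPA12A, a distant relative of the 70 kDa chaperones, at 37.0 FPKM at 10 mg/L and 41.7 FPKM at 100 mg/L, against 58.3 FPKM in the control and 56.2 FPKM in the surfactant control.

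Among structural genes, a few single members stood out of lists that did not. Ribosomal protein L11 (Rpl11), of the large subunit, was the most abundant call, at 1038 FPKM at 10 mg/L and 1096 FPKM at 100 mg/L, against 1646 FPKM in the control and 1599 FPKM in the surfactant control. A single contig made 99.8% of this sum, and the ratio of 0.66 was 0.675 without PET 10 mg/L and 0.667 without the control, on the other side of the threshold. The 45 kept ribosomal proteins of 104 annotations had a median of 0.04, that of all sums, with 13 separated higher and 3 lower as deposited, but 5 and 7 with scaling.

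The alpha-2 chain of type I collagen (col1a2), of skin and bone, was at 120 FPKM at 10 mg/L and 107 FPKM at 100 mg/L, against 160 FPKM in the control and 147 FPKM in the surfactant control. Of 60 annotations of collagens and matrix 23 were kept, with a median of 0.01, 5 separated higher and 2 lower, or 4 and 5 with scaling. Cystatin-A (CSTA), a protease inhibitor of epidermis that is in none of the gene lists, was called lower. CSTA was at 9.39 FPKM at 10 mg/L and 9.05 FPKM at 100 mg/L, against 13.8 FPKM in the control and 28.2 FPKM in the surfactant control. Its ratio was 0.68 without the surfactant control. It passed the filter of 10 FPKM through the pair without fibres, with a PET mean of 9.22 FPKM. Keratins and epidermal junctions, 16 kept of 33, had a median of 0.00, 3 higher and 2 lower, or 1 and 3 with scaling. The desmosome proteins plakoglobin (jup) and plakophilin-3 (Pkp3), which link epidermal cells, had log2 ratios of -0.20 and -0.25.

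Several calls rest on few contigs or on 1 library. Prenylcysteine oxidase (PCYOX1), an enzyme that degrades prenylated cysteines, had the largest ratio, with 26.2 FPKM at 10 mg/L and 7.93 FPKM at 100 mg/L, against 3.03 FPKM in the control and 4.05 FPKM in the surfactant control. It passed the filter through the PET 10 mg/L library, with which its ratio was 4.35 and without which it was 2.09. Protein sprouty homolog 1 (SPRY1), an inhibitor of growth factor signalling, was at 12.9 FPKM at 10 mg/L and 5.04 FPKM at 100 mg/L, against 14.7 FPKM in the control and 16.4 FPKM in the surfactant control, but a different contig held the control's value than the others'. Its ratio was 0.83 without PET 100 mg/L, and it passed the filter of 10 FPKM through the pair without fibres, with a PET mean of 8.945 FPKM. Of the 18 higher calls 14 were separated the same way at the contig with the highest mean, and 10 of the 11 lower calls. That contig overlapped for apoa1, for PITPNA, neoverrucotoxin subunit beta and the Pol polyprotein (all described below), and for SPRY1 among the lower.

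Other higher calls were the nucleotide enzyme NDP kinase A1 (log2 ratio 0.65), XlCGF48.2 (0.95), a zinc finger protein named from Xenopus, PITPNA (0.67), a lipid transfer protein, and lap3 (0.78), a peptidase. Neoverrucotoxin subunit beta (0.68), named from a stonefish venom, VWA7 (0.60), a retrotransposon Pol polyprotein (0.67) and Csrp1 (0.61), a LIM domain protein, were also among them. At the main contig alone the log2 ratio was 0.06 for PITPNA and 0.39 for Csrp1. PITPNA passed the filter of 10 FPKM through the PET pair, with a mean of 8.01 FPKM without fibres. The remaining lower calls were FRY (-0.65), ST6GALNAC2 (-0.68), a sialyltransferase, ccdc25 (-0.64), Scaf1 (-0.66), a splicing-related protein, and ZNF300 (-0.59), a zinc finger protein. The main contig of FRY held 33.2% of its sum, and its next contigs by level overlapped or were separated higher. ZNF300 was at 12.05 FPKM at 10 mg/L, near the 12.65 FPKM of the control. Its ratio was 0.78 without PET 100 mg/L and 0.81 without the surfactant control. ST6GALNAC2 and ccdc25 passed the filter of 10 FPKM through the pair without fibres, with PET means of 9.19 and 8.765 FPKM. Their places among the lower calls are thus not independent of their direction. Dose did not order the higher calls, as the PET 100 mg/L library was above the PET 10 mg/L library in 8 of 18. Among the lower calls PET 100 mg/L was the lowest library in 10 of 11. In these 10 the log2 ratio of PET 100 mg/L over PET 10 mg/L ran between -1.27 (SPRY1) and -0.03 (Scaf1). With 1 library per dose, and sums picked by their PET values, an effect of dose was not tested.

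The glands and skin cells of the title were measured through few genes. Stanniocalcin (stc) was under the filter, at 5.33 FPKM at 10 mg/L and 11.5 FPKM at 100 mg/L, against 8.95 FPKM in the control and 3.36 FPKM in the surfactant control, so the ranges overlap. Of the 7 kept members of the calcium list, of 18 annotations, 3 were separated higher and 1 lower, or 1 and 1 with scaling, with a median of 0.06. The calcium-binding S100G, which carries calcium across epithelial cells in mammals, was at 570 FPKM at 10 mg/L and 690 FPKM at 100 mg/L, against 460 FPKM in the control and 451 FPKM in the surfactant control, a log2 ratio of 0.47. The plasma membrane calcium pumps Atp2b3 and Atp2b1 and the calcium-binding calretinin (Calb2) had log2 ratios of 0.15, -0.06 and 0.06 with ranges apart, but only Atp2b1 stayed apart with scaling. ATP2B2, ATP2B4 and the vitamin D-inactivating CYP24A1 overlapped, at 0.04, 0.05 and 0.08.

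Of 24 Merkel cell marker annotations 7 were kept, with a median of 0.16, 4 separated higher (57.1%) and 0 lower, or 3 and 0 with scaling. All kept sums had 26.8% higher and 11.9% lower as deposited. The medians of the list in the other pairings were 0.11 and -0.10. POU4F2, a transcription factor of sensory neurons, was at 22.9 FPKM at 10 mg/L and 20.4 FPKM at 100 mg/L, against 19.2 FPKM in the control and 15.7 FPKM in the surfactant control. Chromogranin-A (CHGA), of secretory granules, was at 10.8 FPKM at 10 mg/L and 12.4 FPKM at 100 mg/L, against 9.81 FPKM in the control and 9.87 FPKM in the surfactant control. It passed the filter of 10 FPKM through the PET pair, so its place among the 4 is not independent of its direction. Keratins 8 and 18 (krt8 and krt18), which many simple epithelia express, had log2 ratios of 0.16 and 0.14, and krt8 overlapped after scaling. The other members isl3, Fgf13 and snap25a overlapped, at 0.18, 0.05 and 0.05. ATOH1, which specifies Merkel cells, and the touch channel Piezo2 were under the filter with no library above 1.17 and 4.21 FPKM.

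Ion and water transport and neurons had more members higher than lower, by small steps, as did all kept sums as deposited (26.8% and 11.9%). Of 62 ionocyte annotations 23 were kept, with a median of 0.09, 12 separated higher (52.2%) and 1 lower (9 and 1 with scaling). Each of the other pairings had 1 and 4, counts that the separations under the PET pairing limit. Ammonium transporter Rh type C 2 (rhcg2), which excretes ammonia at gill and skin, was at 393 FPKM at 10 mg/L and 383 FPKM at 100 mg/L, against 343 FPKM in the control and 320 FPKM in the surfactant control. The water channel aquaporin-3 (Aqp3) was the 1 member lower, with a log2 ratio of -0.11. Synapse and neuron genes, 27 kept of 88, had a median of 0.07, 10 higher (37.0%) and 1 lower (7 and 1 with scaling). The other pairings had 6 and 2, and 5 and 3. The glutamate receptor Gria4 was at a log2 ratio of 0.32 and the neuronal RNA-binding ELAVL3 at 0.25.

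**Figure D5:**
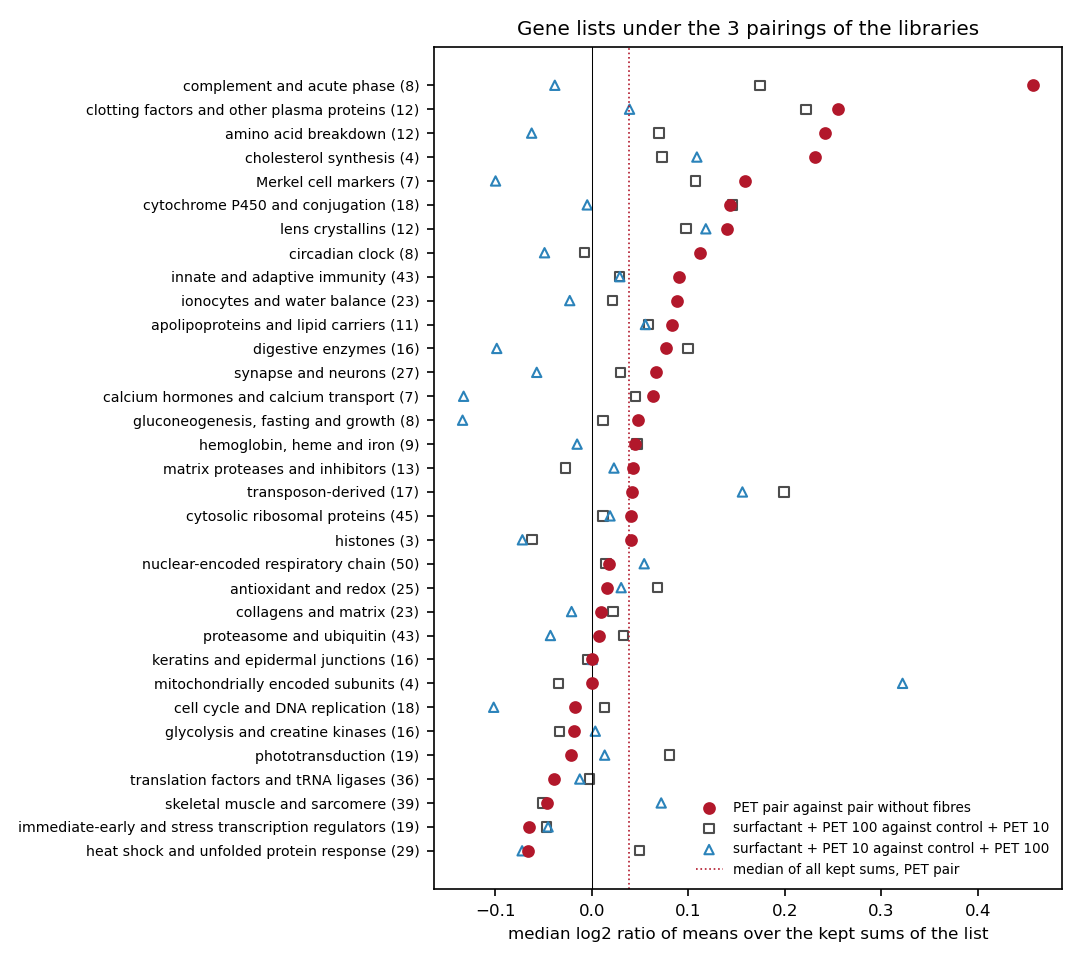
Median log2 ratio of the kept members of each of the 33 gene lists (number of members in parentheses) for the PET pair against the pair without fibres (red) and for the other pairings (open symbols), with the median of all kept sums under the PET pairing as a dotted line at 0.04. Complement and acute phase is at 0.46 under the PET pairing and at 0.17 and -0.04 under the others, whereas plasma proteins are at 0.26, 0.22 and 0.04.

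Of the 33 lists 22 had more members separated higher than lower as deposited, 8 the reverse and 3 as many of each, beside 721 higher and 320 lower among all kept sums. With scaling 13 lists had more members separated higher than lower, 16 the reverse and 4 as many of each. Lens crystallins had a median of 0.14 with 3 higher and 1 lower as deposited but 0 and 2 with scaling, and digestive enzymes one of 0.08 with 4 and 1, but 1 and 2 with scaling. The 50 kept nuclear-encoded respiratory chain members had a median of 0.02, 8 higher and 7 lower, or 3 and 10 with scaling. Within it the membrane ring subunit of ATP synthase ATP5G3 had a log2 ratio of -0.39 and the stalk subunit ATP5O one of 0.17. The 4 kept mitochondrially encoded subunits and the 3 kept histones had 0 separated members. Cell cycle and replication, 18 kept, had 1 higher and 4 lower (1 and 5 with scaling), with the helicase subunit mcm5 at -0.25 and the mitotic cyclin ccnb1 at 0.13.

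The blood, eye and clock lists each had members separated in both directions. Hemoglobin, heme and iron, 9 kept of 22, had a median of 0.05, 4 higher and 1 lower (3 and 2 with scaling). The alpha subunit of embryonic hemoglobin (HBAE_ORYLA) was at 2363 FPKM at 10 mg/L and 2522 FPKM at 100 mg/L, against 2034 FPKM in the control and 2145 FPKM in the surfactant control. Band 3 (slc4a1), the anion exchanger of red cells, lay the other way, at 13.8 FPKM at 10 mg/L and 15.98 FPKM at 100 mg/L, against 23.7 FPKM in the control and 16.2 FPKM in the surfactant control, where PET 100 mg/L and the surfactant control nearly touch. Phototransduction, 19 kept of 35, had a median of -0.02, 2 higher and 4 lower (2 and 6 with scaling), with cone arrestin (ARR3), which quenches cone opsins, at a log2 ratio of -0.17. The circadian clock list, 8 kept of 19, had a median of 0.11, 5 higher and 1 lower (4 and 1 with scaling), with the repressor Bhlhe40 at 0.20.

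Proteases and the machinery of protein turnover and synthesis made up most of the rest. Matrix proteases and their inhibitors, 13 kept of 29, had a median of 0.04, 5 higher and 1 lower (4 and 1 with scaling). The lysosomal protease cathepsin L2 (CTSV) was at 249 FPKM at 10 mg/L and 243 FPKM at 100 mg/L, against 203 FPKM in the control and 173 FPKM in the surfactant control. Collagenase 3 (MMP13), which cuts fibrillar collagen, was the member separated lower, at 10.5 FPKM at 10 mg/L and 11.2 FPKM at 100 mg/L, against 13.2 FPKM in the control and 12.1 FPKM in the surfactant control. Translation factors and tRNA ligases, 36 kept of 96, had a median of -0.04, 7 higher and 11 lower (4 and 15 with scaling). Proteasome and ubiquitin genes, 43 kept of 88, had a median of 0.01, 3 higher and 4 lower (3 and 11 with scaling).

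The list of gluconeogenesis, fasting and growth kept 8 of 41 annotations with a median of 0.05, 2 higher and 1 lower as deposited but 1 and 2 with scaling. Growth hormone (gh), of the pituitary, was at 10.4 FPKM at 10 mg/L and 13.7 FPKM at 100 mg/L, against 9.05 FPKM in the control and 9.23 FPKM in the surfactant control. It too passed the filter of 10 FPKM through the PET pair. Fructose-1,6-bisphosphatase 1 (FBP1), of glucose synthesis, had a log2 ratio of -0.18 with ranges apart. Transposon-derived sums, 17 kept of 48, had 1 higher and 1 lower with and without scaling under the PET pairing, beside 7 and 1, and 7 and 0, in the other pairings.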

How the data were processed

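RNA of whole larvae was sequenced as 1 library per treatment. The authors deposited FPKM per contig in a table of 257521 contigs, per the file headers; RSEM, Bowtie and bcl2fastq 2.20.0.422 stand in the submitters' processing notes. Assembly and annotation of the contigs stand as not given in the sources used here; no genome was used. FPKM was summed by description with pandas 2.3.3 under Python 3.11.15 (sums rounded to remove ties from floating point). Sums with a 4-library mean of at least 10 FPKM were kept; log2 ratios are of pair means plus 0.5 FPKM, which understates low genes. Calls needed ranges apart and 1.5-fold. FPKM keeps no read counts, so counting error is unknown. Median-of-ratios scaling, other filters, pseudocounts, folds and means, the main contig alone and leaving out each library were alternatives. Named genes were the 15 calls in each direction with the widest gap between nearest libraries, up to 4 separated members per list with the largest ratio, and all kept calcium and Merkel members; VWA7, Pol, Csrp1, MBL2, Cfi, Cfb, C1QL2, Cth, CBS, gpt2, gpt2l, GOT1, Aqp3, egr1, members under the filter and those of the other observations were named after their values were seen. The comparison, the members and the 33 lists (word patterns on the description) were chosen with earlier results of these data known. The computations were tested on simulated data. A few genes that the naming rule takes in are not reported here.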

Additional observations from a re-analysis of the deposited data

How the results depend on the processing

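With 1 library per treatment no spread between replicates exists, the pairs mix doses and vehicles, and signal near the filter has unknown counting error. No paired analysis was possible because each group has 1 library and the labels give no shared replicate numbers. The 18 higher and 11 lower calls stayed within 1.5 times of these counts under pseudocounts of 0 and 1, geometric means and scaling (15 and 12). They were 6 and 4 at a mean of at least 30 FPKM, 87 and 29 with a fold threshold 25% above equality, 3 and 2 at 2-fold, and 545 and 248 with no filter, where more and lower sums enter. At the main contig alone they were 13 and 7, and 19 of the 21 calls still measured there held. Leaving out 1 library gave 21 to 29 higher and 9 to 20 lower calls with the sums kept by the 4-library filter. Ranges separate more readily with 1 library on a side, so these counts are not like for like with 18 and 11. The most (29 and 20) were without PET 10 mg/L, and why that library gave the most was not tested. With the filter applied to the 3 libraries left, chosen after seeing the data, the counts were 21 to 31 higher and 9 to 20 lower. Scaling kept 26 of the 29 calls. Of the list medians under alternatives, 340 kept close to their value, 22 moved and 1 reversed: the circadian clock list, with a median of 0.11, was at -0.00496 with a mean of at least 30 FPKM, where fewer members remain. The complement and acute phase median ranged between 0.38 and 0.80, amino acid breakdown between 0.17 and 0.37, cholesterol synthesis between 0.15 and 0.32, plasma proteins between 0.11 and 0.39, and muscle between -0.09 and -0.03.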

Other observations

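Outside the gene lists, other sums with ranges apart had roles near those described; they were chosen after their values were seen. Acetyl-CoA synthetase of the cytoplasm (ACSS2), which makes acetyl-CoA for lipid synthesis, was at 70.1 FPKM at 10 mg/L and 62.6 FPKM at 100 mg/L, against 45.7 FPKM in the control and 46.9 FPKM in the surfactant control. Acetoacetyl-CoA synthetase (aacs), which returns ketone bodies to lipid synthesis, was at 15.7 FPKM at 10 mg/L and 17.3 FPKM at 100 mg/L, against 11.4 FPKM in the control and 12.2 FPKM in the surfactant control. Delta(14)-sterol reductase (Tm7sf2), a later enzyme of cholesterol synthesis, had a log2 ratio of 0.39 and Transmembrane protein 97 (tmem97), a sterol-regulated membrane protein, of 0.40. Hepatocyte nuclear factor 4-alpha (hnf4a), a transcription factor of liver and gut, was at 19.7 FPKM at 10 mg/L and 19.1 FPKM at 100 mg/L, against 14.5 FPKM in the control and 14.1 FPKM in the surfactant control. These 5 sums were picked from those with ranges apart, which 38.8% of all kept sums have, and none reached 1.5-fold.

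Signalling peptides and gut proteins were among them too. Peptide Y, of the neuropeptide Y family, was at 38.3 FPKM at 10 mg/L and 37.3 FPKM at 100 mg/L, against 24.7 FPKM in the control and 30.6 FPKM in the surfactant control. Galanin (gal), a neuropeptide, was at 14.4 FPKM at 10 mg/L and 12.2 FPKM at 100 mg/L, against 9.41 FPKM in the control and 10.7 FPKM in the surfactant control. Acidic mammalian chitinase (Chia), which digests chitin, was at 1033 FPKM at 10 mg/L and 1068 FPKM at 100 mg/L, against 764 FPKM in the control and 901 FPKM in the surfactant control. Nuclear protein 1 (Nupr1), a stress-induced chromatin protein, was the separated sum just under the higher threshold, at 14.5 FPKM at 10 mg/L and 19.3 FPKM at 100 mg/L, against 12.4 FPKM in the control and 10.1 FPKM in the surfactant control, a ratio of 1.48.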
